A study of Mus musculus with 104 samples.

Results

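The step examined here ran from middle age to old age in the hypothalamus of BALB mice. Arrays were chosen by their labels, with earlier results of these data known. They were the 6 BALB hypothalamus arrays of mice aged 20-23 months (old) and the 5 of mice aged 12-13 months (middle), which made 11 of the 104 samples of the series. BALB is an inbred laboratory mouse strain. All mice were male and untreated, came from a rodent colony kept for aging research, were housed singly and had been watched in home cages before the tissue was taken, so young, middle and old groups shared that history. Each array held RNA of whole-tissue hypothalamus, amplified once, labelled with Cy3 and hybridised to a 1-colour Agilent mouse genome array. The 7 arrays of BALB mice aged 2-3 months (young) entered the normalization and the estimate of spread. The 13 CBA hypothalamus arrays of another strain at 12-13 months (5) and 21-23 months (8) gave the same step in separate mice. The 7 arrays of CBA mice aged 2-3 months entered the normalization and the estimate of spread for that strain.

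The hypothalamus is a small region at the base of the brain that sets hunger, body temperature, water balance, sleep, stress responses and reproduction, largely through neurons that release peptides. Its resident immune cells are microglia, which carry receptors for antibody and complement, engulf debris and other material, and show antigen on MHC molecules. Macrophages of the meninges and vessels use many of the same genes. In RNA of whole tissue, more cells of a type and more RNA per cell cannot be told apart.

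Levels are given as log2 signal after quantile normalization over the 18 BALB hypothalamus arrays, and differences are old minus middle on that scale with the standard error (SE) from limma. Genes were called by B, the log-odds of a difference in limma, where B exceeded 0 for at least 1 probe. Of 18506 genes tested, 41 were called higher in old mice (0.222%) and 1 lower (0.0054%). At a Benjamini-Hochberg adjusted p under 0.05 in limma, 6 genes were called, each higher (0.0324%). Without adjustment, 982 genes had p under 0.05 and were higher (5.31%) and 813 were lower (4.39%). The median difference of all genes was -0.0039. Of the 41 genes called higher, 16 belonged to lists of immune or microglial genes and 2 to a list of reactive astrocyte genes. Timp1 was in a list of both kinds, and 24 belonged to no list. Mpeg1 and Timp1 were among the 16 only through the immune genes that the study names, which were chosen on these samples. All 37 lists together held 520 genes, tested or not, and the share of tested genes in the immune lists was not counted.

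The share of probes well above background was 65.2% ± 2.66 (SD, n = 6) in old mice and 64.1% ± 4.71 (SD, n = 5) in middle mice (two-sided exact permutation test, p = 0.615 over 462 arrangements). The 75th percentile of intensity ran from 944 to 1992 on the old arrays, with old array 1 the brightest, and from 1088 to 1340.2 on the middle ones (p = 0.675 by the same exact test). Every pair of old and middle arrays correlated at 0.981 or above. Young array 1 stood apart, with 89.9% of its probes well above background, and without it 80 genes were called in the late-life step. Signal of anterior pituitary genes was very high on old array 2, where prolactin (Prl) was at 17.45, and was raised on old array 1 (11.54) and middle array 2 (12.69). The other old and middle arrays held Prl at 8.13 or lower. Marker genes of meningeal fibroblasts moved with age group, and their values stand with the other cell markers.

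Receptors for the constant part of antibodies and their signalling adaptors were among the genes called at an adjusted p under 0.05. Fcer1g, the gamma chain that Fc receptors need for signalling, was at 10.29, 10.30, 10.50, 10.26 and 10.28 on middle arrays 1 to 5, and at a lowest of 10.73, a median of 10.83 and a highest of 10.98 on the old arrays. The groups did not overlap, and young arrays, at 10.19 to 10.51, sat with the middle ones. The difference was 0.52 (SE 0.08, adjusted p = 0.0249 in limma), a 1.43-fold higher signal. Its second probe gave 0.48.

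Fcgr3, a low-affinity activating IgG receptor, was at 10.92, 10.80, 10.92, 10.65 and 10.98 on the middle arrays, and at 11.32, 11.46 and 11.61 (lowest, median, highest) on the old ones. Every old array was above every middle array, with a difference of 0.60 (SE 0.09, adjusted p = 0.0249 in limma). Fcgr2b, the inhibitory IgG receptor, was at 8.78, 8.30, 8.37, 8.53 and 8.65 on the middle arrays and from 8.95 to 9.64 with a median of 9.16 on the old ones. It was also separate between the groups, and the difference was 0.69 (SE 0.13, adjusted p = 0.134). The activating receptors Fcgr1 and Fcgr4 were not called, at 0.18 (SE 0.12) and 0.25 (SE 0.21), and their groups overlapped.

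Tyrobp, the adaptor that carries signals of TREM2 and related receptors, was at 11.28, 11.13, 11.07, 11.50 and 11.39 on the middle arrays and at 11.65, 11.82 and 11.98 on the old ones. The groups did not overlap, and the difference was 0.56 (SE 0.11, adjusted p = 0.16). Cd14, the lipopolysaccharide co-receptor of macrophages, lay within 9.35 to 9.50 on all 6 old arrays and was at 9.09, 8.89, 8.95, 8.97 and 8.98 on the middle ones. Its difference of 0.44 had the smallest SE of the genes called at their brightest probe (0.07, adjusted p = 0.0249). Of the 22 tested genes in the list of pattern recognition and Fc receptors with their adaptors, 4 (Fcer1g, Fcgr3, Fcgr2b and Cd14) were called higher and none lower, and the median difference of the list was 0.27. The toll-like receptors were not called: Tlr2 differed by 0.30 (SE 0.14), Tlr4 by 0.41 (SE 0.14) and Tlr7 by 0.51 (SE 0.32).

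**Figure D1:**
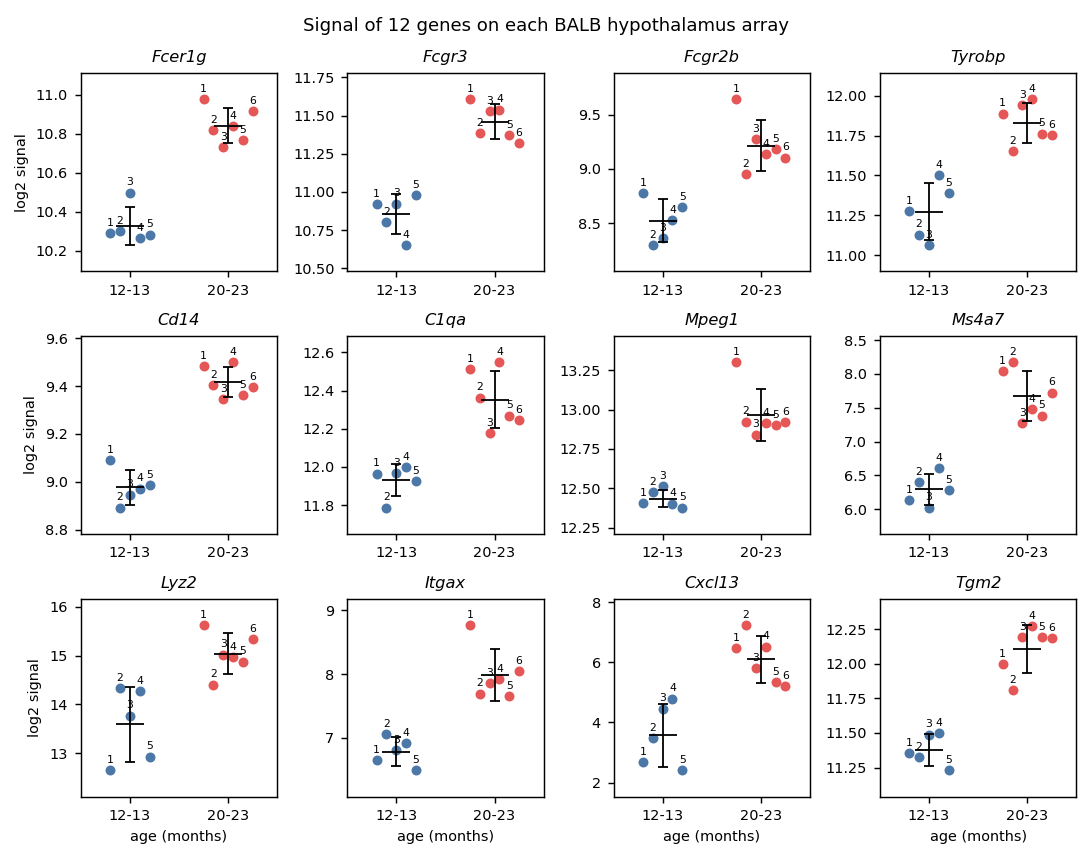
Log2 signal of 12 genes on each BALB hypothalamus array at 12-13 months (blue, 5 arrays) and 20-23 months (red, 6 arrays), with array numbers, and with the mean and SD in black. In each of the 12 panels every old array lies above every middle array, for example 10.73 to 10.98 against 10.26 to 10.50 for Fcer1g. The 12 were picked from genes called higher, so their separation is a description, and it held for 1.18% of all genes tested. Cxcl13 passed the filter for signal above background through the old arrays alone.

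Mpeg1, Ms4a7, Cybb, Ncf4, Gpr65 and Plac8 were also called higher. Mpeg1, a pore-forming protein of macrophages, was at 12.41, 12.47, 12.51, 12.40 and 12.38 on the middle arrays and at 12.84, 12.92 and 13.30 on the old ones. The middle arrays lay close together, old array 1 was the highest, and the difference was 0.53 (SE 0.08, adjusted p = 0.0249 in limma). Ms4a7, a membrane protein used as a marker of brain border macrophages, was at 6.14, 6.40, 6.02, 6.61 and 6.28 on the middle arrays and at 7.27, 7.60 and 8.17 on the old ones. It was 2.61-fold higher (difference 1.39, SE 0.23, adjusted p = 0.0476), and its second probe gave 1.35.

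Cybb, the catalytic subunit of the NADPH oxidase, was well above background on 1 of 5 middle arrays and on all 6 old ones. It was at 3.11, 4.89, 4.72, 4.56 and 3.19 against 5.15, 6.01 and 6.23, without overlap (difference 1.80, SE 0.37, adjusted p = 0.161). Ncf4, a cytosolic subunit of the same oxidase, differed by 0.43 (SE 0.08, adjusted p = 0.128), from 8.79 to 9.12 on the middle arrays to 9.20 to 9.52 on the old ones. Gpr65, a proton-sensing receptor of immune cells, differed by 0.87 (SE 0.16), and was well above background on 3 middle arrays and all old ones. Plac8 differed by 1.45 (SE 0.30). None of these 4 genes overlapped between the groups. The difference of dim genes was smaller with normexp background correction, at 0.55 for Cybb, 0.45 for Gpr65, 0.65 for Plac8 and 0.83 for Ms4a7, and the Cybb level on the 4 middle arrays near background is uncertain.

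Both lysozyme genes were called. Lyz2, the lysozyme of macrophages, was at 12.65, 14.34, 13.77, 14.28 and 12.93 on the middle arrays and at 14.41, 15.00 and 15.63 on the old ones. The middle arrays spanned a wide range, the lowest old array lay just above the highest middle array, and the difference was 1.44 (SE 0.31, adjusted p = 0.181). Lyz1 gave 1.55 (SE 0.31) with the arrays in much the same order. The 2 genes are near-identical copies, so their probes may share signal.

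The list of genes that phagocytic, disease-associated microglia raise held 23 tested genes, of which 6 were called higher and none lower. They were Lyz2 and Tyrobp and also Ch25h, Itgax, Spp1 and Lgals3. Ch25h, which makes 25-hydroxycholesterol, was at 5.25, 5.77, 6.40, 6.22 and 6.01 on the middle arrays and at 6.70, 7.52 and 8.83 on the old ones (difference 1.67, SE 0.35). Itgax, the integrin CD11c, was at 6.65, 7.06, 6.80, 6.92 and 6.49 against 7.65, 7.89 and 8.77 (1.21, SE 0.25). Old array 1 was the highest for Itgax and old array 5 for Ch25h, and neither gene overlapped between the groups.

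Spp1, osteopontin, was 2.36-fold higher (1.24, SE 0.28) and Lgals3, galectin-3, 2.06-fold (1.04, SE 0.23). Clec7a, the beta-glucan receptor dectin-1, was at 1.29 with B of -0.02 and so was not called, although its groups did not overlap. Gpnmb gave the largest difference of the list, 2.39 (SE 0.59, not called), and was well above background on 2 of 5 middle and all 6 old arrays. Trem2 was at 0.34 (SE 0.08, adjusted p = 0.242) and Cd68 at 0.43 (SE 0.13), both not called, and Apoe was at 0.08 (SE 0.06). The median of the list was 0.34, and its mean level lay between -0.32 and 0.10 on the middle arrays and between 0.36 and 0.80 on the old ones, where 0 is the mean of all 18 arrays. Separate mean levels were not particular to this list. The complement, MHC class II, chemokine and cytokine, pattern recognition and Fc receptor, and reactive astrocyte lists were separate between the groups as well.

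Markers of resting microglia did not show that separation. None of the 12 tested genes was called, and the median difference was 0.13. P2ry12, the ADP receptor of resting microglia, was at 9.21, 9.42, 9.61, 9.28 and 9.57 on the middle arrays and at 9.44, 9.68 and 10.14 on the old ones, with overlap (0.32, SE 0.13). Tmem119 was at 0.12 (SE 0.09) and Cx3cr1 at 0.14 (SE 0.12). The mean level of the list ranged from -0.12 to -0.02 on the middle arrays and from -0.08 to 0.19 on the old ones. Of 33 immune genes that the study itself names, all were positive, 9 were called higher and the median was 0.52, but that list was chosen on these samples and is not independent evidence of its direction. The 16 genes of lysosomal proteins and hydrolases had none called and a median of 0.14.

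**Figure D2:**
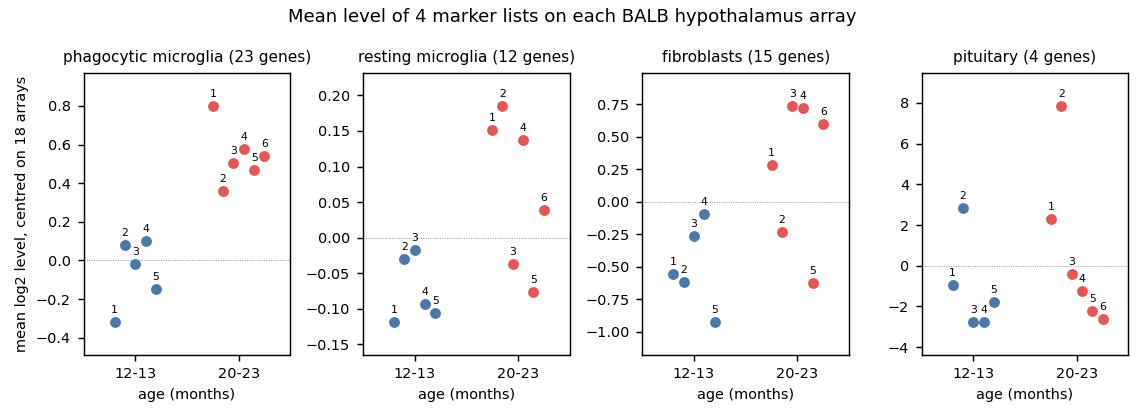
Mean log2 level of 4 marker lists on each array, each gene centred on its mean over the 18 BALB hypothalamus arrays, at 12-13 months (blue) and 20-23 months (red), with array numbers. The phagocytic microglia list did not overlap between the groups (highest middle 0.10, lowest old 0.36), the resting microglia and fibroblast lists did, and old array 2 stood alone for pituitary genes at 7.87. Among lists not drawn here, those of complement (-0.08 against 0.06) and MHC class II genes (0.07 against 0.20) did not overlap either.

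The promoters of called genes are shown where they held the core of a binding site for PU.1, the leading transcription factor of macrophages and microglia, or of an interferon-stimulated response element. The letters searched on both strands were GAGGAAGT for PU.1, GAAANNGAA for the interferon element and CACGTG for the E-box of clock proteins, in the 300 bases from RefSeq around each gene start (build GRCm38.p6). Promoters were matched for 29 of the 41 genes called higher. A gene counted where any of its promoters matched. The PU.1 core was in 3 of the 29 (10.3%, against 3.37% of the 11214 tested genes with a promoter). The interferon core was in 4 (13.8%, against 8.67%) and the E-box in none (against 11.3%). Spp1, Ifi47 and Gcnt1 held the PU.1 core, and Spp1, Cybb, Ms4a7 and Lyz1 the interferon core. The sequences of 4 of these genes run 5′ to 3′ on the strand of the gene, with the matched letters in capitals.
Spp1 (chr5:104434861-104435160, plus strand): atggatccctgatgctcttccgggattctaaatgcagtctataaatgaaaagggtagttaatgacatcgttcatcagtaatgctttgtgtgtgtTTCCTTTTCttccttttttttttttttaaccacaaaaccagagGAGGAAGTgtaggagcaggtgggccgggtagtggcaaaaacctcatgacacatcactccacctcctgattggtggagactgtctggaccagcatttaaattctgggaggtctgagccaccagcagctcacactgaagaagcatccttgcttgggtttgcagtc
Cybb (chrX:9469275-9469574, minus strand): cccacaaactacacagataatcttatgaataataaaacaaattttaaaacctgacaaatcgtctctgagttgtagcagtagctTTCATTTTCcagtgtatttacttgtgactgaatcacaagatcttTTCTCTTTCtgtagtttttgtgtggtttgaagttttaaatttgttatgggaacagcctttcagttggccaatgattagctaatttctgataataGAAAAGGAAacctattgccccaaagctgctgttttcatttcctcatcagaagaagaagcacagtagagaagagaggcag
Ms4a7 (chr19:11336097-11336396, minus strand): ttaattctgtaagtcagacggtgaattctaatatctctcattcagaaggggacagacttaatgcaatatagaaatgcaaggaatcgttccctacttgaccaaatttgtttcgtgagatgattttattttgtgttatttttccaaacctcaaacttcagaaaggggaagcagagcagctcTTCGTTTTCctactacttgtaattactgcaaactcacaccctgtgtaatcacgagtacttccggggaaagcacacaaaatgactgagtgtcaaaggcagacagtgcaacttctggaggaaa
Ifi47 (chr11:49076337-49076636, plus strand): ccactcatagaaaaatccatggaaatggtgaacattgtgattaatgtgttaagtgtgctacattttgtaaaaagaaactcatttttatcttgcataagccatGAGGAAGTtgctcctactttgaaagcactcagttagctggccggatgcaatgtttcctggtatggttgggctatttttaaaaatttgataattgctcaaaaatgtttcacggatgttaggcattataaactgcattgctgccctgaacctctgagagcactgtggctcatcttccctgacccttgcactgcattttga
In Cybb the interferon core matched at 3 separate places. A match is a run of letters and was not tested as a binding site.

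Complement genes were higher in part. C1qa, a chain of the first component of the classical pathway, was at 11.96, 11.79, 11.97, 12.00 and 11.93 on the middle arrays and at 12.18, 12.32 and 12.55 on the old ones. The groups did not overlap (0.42, SE 0.08, adjusted p = 0.128), while its partner chains were not called, C1qb at 0.25 (SE 0.11) and C1qc at 0.15 (SE 0.14). C3, the central component, was at 10.84, 11.62, 11.42, 11.25 and 11.07 on the middle arrays and at 11.36, 12.13 and 12.21 on the old ones, which overlapped (0.68, SE 0.18, adjusted p = 0.338).

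Of 16 tested complement genes, 2 were called higher and none lower, and the median difference was 0.39. Unadjusted p was under 0.05 in limma for 11 of the 16, all higher, as it was for 5.31% of all genes tested. Among the genes that were not called, C1s1 was at 1.39, C1ra at 1.20 and Serping1, the C1 inhibitor, at 0.98 (SE 0.34). Serping1 was lowest on old arrays 2 and 5 (9.26 and 9.50), the same old arrays that were lowest for the fibroblast list.

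MHC class II genes, which present antigen to helper T cells, had the highest median of the immune lists, at 0.94 over 7 tested genes. H2-Ab1 was called at 2 of its 4 tested probes, and the one with the larger B gave 1.44 (SE 0.22, adjusted p = 0.0249 in limma). Its brightest probe was at 10.06, 9.83, 10.08, 10.16 and 9.76 on the middle arrays and at 10.65, 10.85 and 11.44 on the old ones, without overlap, with a difference of 0.94 (SE 0.27). Young arrays ran from 9.32 to 11.33 on that probe, across both older groups. Cd74, the invariant chain, was at 10.05, 9.75, 9.93, 9.88 and 9.01 against 10.61, 11.14 and 11.50 (1.36, SE 0.34, adjusted p = 0.303), not called though separate. H2-Aa (0.99, SE 0.40) and H2-Eb1 (1.02, SE 0.42) were not called either.

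MHC class I genes, which show peptides to cytotoxic T cells, had no called member among 17 tested entries and a median of 0.42. The entry for H2-Q4 took the probe of H2-D1, so H2-D1 was counted again under that name and H2-Q4 itself was not tested. H2-K1 was at 12.54, 12.68, 12.27, 12.62 and 12.62 on the middle arrays and at 12.89, 13.22 and 13.52 on the old ones (0.68, SE 0.20, adjusted p = 0.414). H2-D1 was at 13.13, 13.09, 12.60, 12.87 and 12.71 against 13.15, 13.47 and 13.65 (0.54, SE 0.14). Both were separate between the groups. Class I genes are close copies of one another, so their probes may share signal. B2m, their common light chain, was at 0.51 (SE 0.18), and the peptide transporter genes Tap1 and Tap2 were at -0.06 and -0.75.

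Cxcl13, a chemokine that attracts B cells, had the largest difference of the genes called at their brightest probe, on the scale of the processed signal. Cxcl13 passed the filter for signal above background through the old arrays alone. It was not well above background on any middle array, at 2.69, 3.49, 4.46, 4.79 and 2.40, and was well above it on all 6 old ones, at 5.21, 6.14 and 7.25. The middle level is therefore a bound, and Cxcl13 was at least 2.75-fold higher in old mice on that scale (measured difference 2.53, SE 0.44, adjusted p = 0.0683 in limma). With normexp background correction the difference was 0.76, below that bound, so its size depends on the treatment of background. It was the 1 called gene among 14 tested chemokines and cytokines, whose median was 0.72. Ccl2 was at 1.41 (SE 0.46), Ccl12 at 1.12 and Il1b, interleukin-1 beta, at 0.73 (SE 0.22), none of them called, and Il1b did not overlap between the groups.

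None of the 25 tested interferon-induced genes in the list was called, and the median was 0.20. Outside the list, the interferon-inducible genes Ifi47 and Ifi202b were called. Ifi47, an immunity-related GTPase, was at 5.03, 6.55, 5.99, 5.54 and 5.50 on the middle arrays and at 6.39, 6.89 and 7.61 on the old ones, with 1 middle array inside the old range (1.23, SE 0.26). Ifi202b was at 7.05, 6.94, 7.23, 6.96 and 7.16 against 7.68, 8.11 and 8.43, separate (1.03, SE 0.24).

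**Figure D3:**
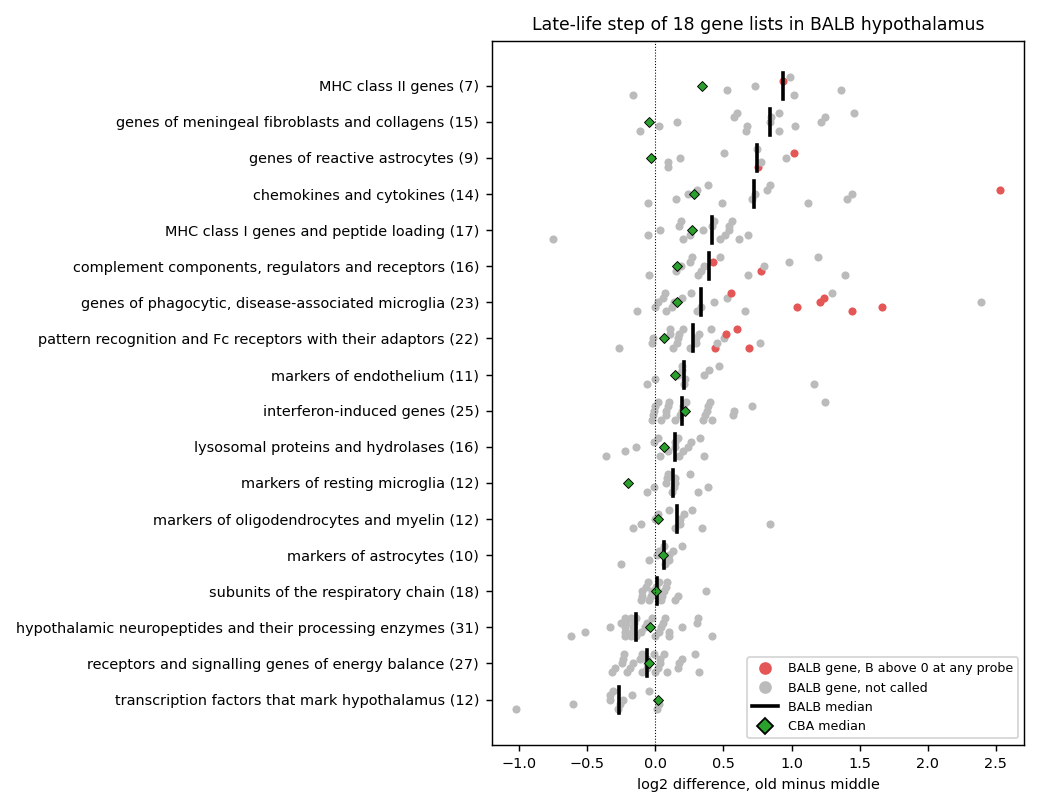
Log2 difference, old minus middle, of each tested gene in 18 lists in BALB hypothalamus, with called genes in red, other genes in grey, the BALB median as a black bar and the median of the same list in CBA as a green diamond. Called genes lie in 6 immune or microglial and astrocyte lists, and the medians run from 0.94 for MHC class II genes to -0.27 for hypothalamic transcription factors.

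Called genes outside the immune lists included Tgm2, Serpina3g and Hspb1. Tgm2, tissue transglutaminase, was at 11.35, 11.32, 11.49, 11.50 and 11.23 on the middle arrays and at 11.81, 12.19 and 12.27 on the old ones. The groups did not overlap (0.73, SE 0.12, adjusted p = 0.0683), but its 2 dimmer probes gave 0.35 (SE 0.34) and 0.32 (SE 0.36). Serpina3g, a serine protease inhibitor, was at 6.77, 5.94, 7.04, 6.85 and 6.25 against 7.32, 7.85 and 8.06 (1.22, SE 0.23, adjusted p = 0.128). Hspb1, the small heat shock protein Hsp27, was at 11.02, 10.45, 10.57, 10.82 and 10.46 against 11.46, 11.60 and 11.98 (1.02, SE 0.21).

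Timp1, an inhibitor of matrix metalloproteinases, was at 8.60, 8.64, 8.52, 8.93 and 8.34 on the middle arrays and at 8.92, 9.42 and 9.69 on the old ones, with old array 5 inside the middle range (0.75, SE 0.17). Hspb1 and Timp1 were the 2 called genes of the 9 tested genes of reactive astrocytes, whose median was 0.74. Vim (0.74, SE 0.23), Gfap (0.50, SE 0.21), Cp (0.96, SE 0.27) and Osmr (0.78, SE 0.20) were not called, and the Gfap fit lacked old array 1, whose spot was marked as an outlier. The 10 tested markers of astrocytes at large had none called and a median of 0.07.

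Lrg1 had the second largest difference among called genes, 2.00 (SE 0.46). It was at 7.21, 6.22, 7.65, 7.75 and 6.54 on the middle arrays and at 7.74, 9.02 and 10.93 on the old ones, with old array 5 the highest and old array 2 level with the highest middle array. Apobec1, a cytidine deaminase that edits RNA, differed by 0.95 (SE 0.21), with old array 2 the highest at 9.98. Tgfbr2, a TGF-beta receptor, differed by 0.48 (SE 0.11) and Cast, the calpain inhibitor, by 0.58 (SE 0.12). The dimmer probes of Cast gave -0.001 (SE 0.10) and 0.44 (SE 0.30). Lrrk2, a kinase known from Parkinson's disease, differed by 0.38 (SE 0.08), Usp28 by 0.32 (SE 0.07) and Slc37a2 by 0.46 (SE 0.09). Probes named LOC634650 and BC019122 gave 0.78 and 0.58. Gcnt1, Phf20l1, 9430020K01Rik and Mkks were called at a probe other than the brightest, and for Mkks the brightest probe pointed the other way (-0.16 against 0.42).

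Of the 41 genes called higher, 35 were called at their brightest probe, with differences from 0.32 to 2.53, and 20 of the 35 were under 2-fold. In 31 of the 35 every old array was above every middle array, as was so for 1.18% of all genes tested, and the reverse held for 0.638%. Slide 1 held old arrays 1 and 3 with middle array 5, and slide 4 held old array 5 with middle arrays 1 and 2. The sign within a slide is fixed by the choice of genes for the 31, so only sizes are given. Fcer1g differed by 0.57 within slide 1 and 0.47 within slide 4, Fcgr3 0.59 and 0.51, Mpeg1 0.69 and 0.46, and Cd14 0.43 and 0.37. With slide as a fixed term 27 genes were called, 21 higher and 6 lower, and 11 of the 27 were among the 42. The numbers of arrays per slide were small, and p-values measure the spread between arrays, each labelled as a separate sample.

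The only gene called lower was the one the array names LOC544888. It was at 8.39, 8.58, 8.12, 8.20 and 8.41 on the middle arrays and at 7.55, 7.87 and 7.97 on the old ones, without overlap (-0.52, SE 0.11, adjusted p = 0.16). Young arrays, at 7.52 to 8.02, lay with the old ones. The 9 next genes by unadjusted p among those lower were not called and are given as values. They were 1700024G13Rik (-0.71), Katnal1 (-0.48), Micall2 (-0.48), AK004585 (-0.44), D030063E12 (-0.38), ENSMUST00000027226 (-0.35), Xrcc3 (-0.33), Dmac2l (-0.31) and Rpp30 (-0.28), with adjusted p from 0.242 to 0.321.

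The peptide systems of the hypothalamus gave no call in either direction. Of 31 tested neuropeptides and processing enzymes, 10 had a positive difference and the median was -0.14. Npvf, the RFamide peptide precursor of the dorsomedial nucleus, was at 6.61, 7.48, 6.33, 6.26 and 6.88 on the middle arrays and at 5.71, 6.02 and 6.49 on the old ones (-0.62, SE 0.21, adjusted p = 0.469). Kiss1, kisspeptin, was at 8.31, 8.52, 7.92, 8.26 and 8.97 against 7.58, 7.89 and 8.21 (-0.52, SE 0.18, adjusted p = 0.475). Both sets overlapped.

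Avp, vasopressin, differed by -0.18 (SE 0.22), Oxt, oxytocin, by -0.17 (SE 0.17), Hcrt, orexin, by -0.33 (SE 0.20) and Agrp, the hunger peptide, by -0.21 (SE 0.32). Pomc, which pituitary cells also make, was at 18.12 on old array 2 and between 13.88 and 14.83 on the other old arrays, so its difference of 0.30 had an SE of 0.58. Transcription factors that mark the hypothalamus had a median of -0.27 over 12 tested genes with none called, and Hmx2 was at -1.03 (SE 0.45). The 27 tested receptors and signalling genes of energy balance had a median of -0.06 and none called. A p that misses the threshold does not show that these levels were the same.

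Markers of other cells moved with the groups to differing degrees. The list of meningeal fibroblasts and collagens had a median difference of 0.84 over 15 tested genes, with none called. In 9 of the 15 the unadjusted p in limma was under 0.05, all higher, as it was for 5.31% of all genes tested. Its mean level was at -0.56, -0.62, -0.27, -0.09 and -0.93 on the middle arrays and at 0.28, -0.24, 0.74, 0.72, -0.62 and 0.60 on old arrays 1 to 6. Old arrays 2 and 5 thus lay within the range of the middle arrays. Young arrays spanned -0.65 to 0.78 for the fibroblast list, and the early step from young to middle had a median of -0.73.

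With the fibroblast level as a covariate no gene was called (B above 0, limma), so all 36 genes called at their brightest probe lost their call. That level moved with age group, and the covariate was chosen after seeing the data. Differences were kept in size for some genes and shrank for others, and the single genes given next do not stand for all. Fcer1g was then at 0.43 (SE 0.08), Fcgr3 at 0.56 (SE 0.11), Mpeg1 at 0.51 (SE 0.10), Cd14 at 0.40 (SE 0.08) and Ms4a7 at 1.28 (SE 0.27), while the medians of the MHC class II and reactive astrocyte lists went to 0.33 and 0.33. Without the 6 arrays of the cohort that held Prl above 10, which left 4 arrays in each age group, no gene was called either, and Fcer1g stood at 0.48 (SE 0.09), Fcgr3 at 0.57 (SE 0.11) and Mpeg1 at 0.47 (SE 0.08).

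Endothelial markers had a median of 0.21 with none of 11 called, led by Vwf, von Willebrand factor, at 1.17 (SE 0.32). T cell markers had none of 7 called and a median of 0.10, and of the defining genes Cd3d, Cd3g, Cd4 and Cd8a were too dim to be tested while Cd3e was at -0.12. B cell markers had none of 7 called and a median of 0.21, with Cd22 at 1.87 (SE 0.56) and Cd79a and Ms4a1 too dim to be tested. Red blood cell, choroid plexus, oligodendrocyte and ependymal lists had medians of 0.31, 0.04, 0.16 and -0.04 with none called. The part of these cell markers in the called genes was not tested beyond the fits given.

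The early step, from 2-3 to 12-13 months, shares the middle arrays with the late step, so its values are set beside it only. In that step 42 genes were called higher (0.227%) and 8 lower (0.0432%). Of the 35 genes called higher late at their brightest probe, 17 had a positive early difference. Fcer1g was at -0.01 (SE 0.07) early and 0.52 late, Fcgr3 at -0.07 (SE 0.09) and 0.60, and Cd14 at -0.04 (SE 0.06) and 0.44. Mpeg1 was at 0.35 (SE 0.08) and 0.53, Itgax at 1.51 (SE 0.24) and 1.21, and C3 at 1.28 (SE 0.18) and 0.68. Serpina3g was at -0.79 (SE 0.22) and 1.22, and Hspb1 at -0.56 (SE 0.20) and 1.02.

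Tested directly, the late step was more positive than the early one for 8 genes (0.0432%) and more negative for 5 (0.027%) by B above 0, and for none at an adjusted p under 0.05 in limma, with 2078 genes at an unadjusted p under 0.05. Among the genes with the largest B at their brightest probe were Serpina3g (difference of the steps 2.01, SE 0.40), Lrrc7 (0.94), Chordc1 (0.87) and Ccng2 (0.67) on the positive side. On the negative side they were LOC544888 (-1.02, SE 0.18), Cldn7 (-1.66), and D030063E12 (-0.73), followed by Tmem103 (-0.59) and Sh3bgr (-1.57) with B under 0. For Fcer1g the steps differed by 0.53 with B of -0.77, so a difference between the steps was not called.

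CBA mice gave the same step in arrays of their own. Of 19837 genes tested there, 6 were called higher at 21-23 than at 12-13 months (0.0302%) and 4 lower (0.0202%), none at an adjusted p under 0.05 in limma, where 1043 genes had an unadjusted p under 0.05. The called genes higher included Ccl4, a chemokine (2.09, SE 0.42), and Pcdhb4 (0.53, SE 0.10), and those lower included Cox7c (-0.64, SE 0.13) and 2810442I21Rik (-0.54). Of the 42 genes called in BALB, 35 were tested in CBA and none of them was called there. With so few calls among all genes in CBA, that absence says little about the 42.

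Of the 35 genes called higher in BALB at their brightest probe, 28 were tested in CBA at the same probe and 21 were positive there. The median difference of all genes tested in CBA was -0.0059. An unadjusted p under 0.05 was reached by 6 of the 28, where 3.76% of all genes reached it in that direction. They were Itgax (1.68, SE 0.39), Ch25h (1.05, SE 0.38), Spp1 (0.76, SE 0.34), Fcgr2b (0.51, SE 0.15), BC019122 (0.51, SE 0.20) and Mpeg1 (0.37, SE 0.14). Fcer1g was at 0.17 (SE 0.20), Fcgr3 at 0.06 (SE 0.27) and Cd14 at 0.17 (SE 0.20). Since the 28 were chosen for their BALB values, the smaller CBA values of 27 of them are a description.

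**Figure D4:**
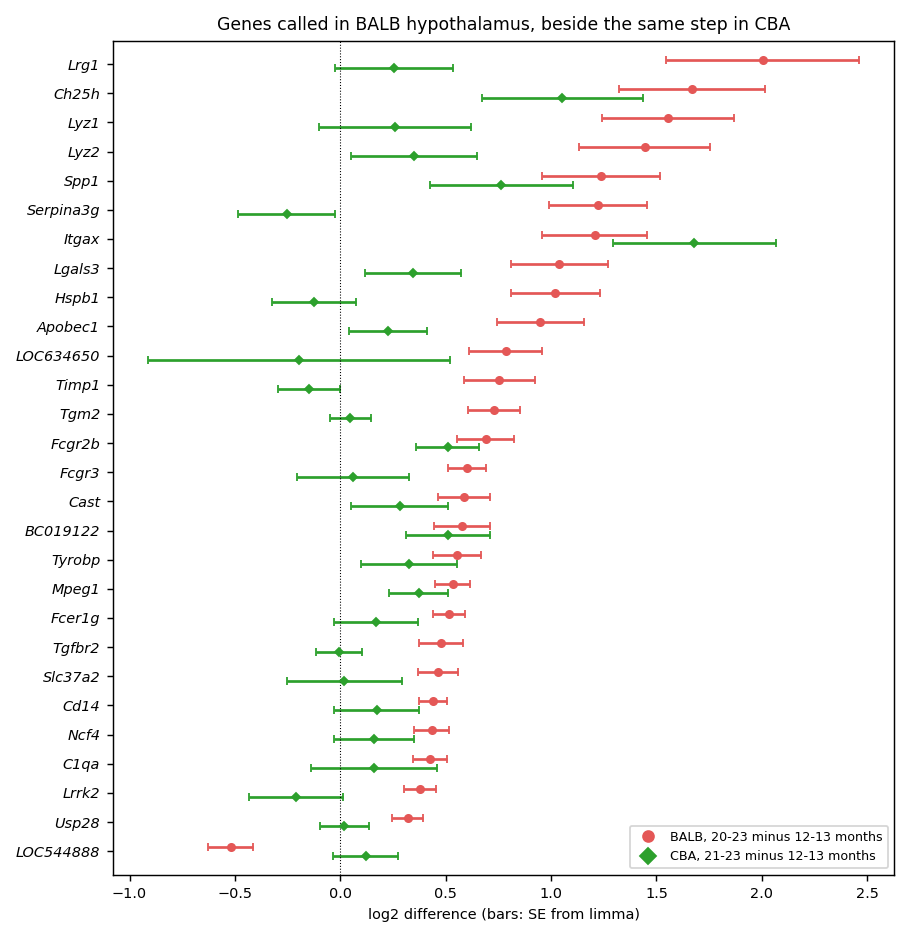
Log2 difference with its SE for 28 of the 29 genes called in BALB at their brightest probe and tested at the same probe in CBA, for BALB (red, 20-23 minus 12-13 months) and CBA (green, 21-23 minus 12-13 months). Itgax, Ch25h, Spp1, Fcgr2b, BC019122 and Mpeg1 reached an unadjusted p under 0.05 in CBA, and Tgm2, Serpina3g, Timp1 and Hspb1 lay near or under 0 there.

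The difference of the late step between the strains was tested over 17388 genes. By B above 0 it was more positive in BALB for 3 genes (0.0173%) and more negative for 4 (0.023%), and for none at an adjusted p under 0.05 in limma, with 1423 at an unadjusted p under 0.05. Serpina3g was at 1.22 in BALB and -0.25 in CBA (difference 1.48, SE 0.33), and Tgm2 at 0.73 and 0.05 (0.68, SE 0.15). Dleu2 (1.25, SE 0.30) was the last of the 3, and Fosl2 (1.08, SE 0.27) and Timp1 (0.90, SE 0.22) followed with B under 0. Zfp474 led the other side (-1.10, SE 0.25), and ENSMUST00000048418 (-1.10), Heyl, a Notch target gene (-0.80, SE 0.20), TC1549841 (-0.64) and AK013505 (-0.65) followed with B under 0. For the Fc receptor genes the strains differed by less than the threshold, 0.35 for Fcer1g (unadjusted p = 0.137 in limma) and 0.54 for Fcgr3 (unadjusted p = 0.0807).

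Single arrays moved the number of calls. Leaving out middle array 5 left 12 genes called, leaving out old array 1 left 15, and leaving out old array 5 gave 78. Leaving out middle array 1 or 2 left 22 and 23. Fcer1g, Fcgr3, Mpeg1, Ms4a7, Cxcl13 and Tgm2 were called by B in 26 of 27 settings that followed single genes (other scaling, background, outlier, filter, slide and array choices), the exception being the set without the arrays of high Prl. Cxcl13 had entered the main test through its old arrays alone, so its count of settings is a description. The fibroblast covariate stands outside these 27 and ended every call. Single genes were not followed with the replicate block, the scan date, the strict filter or the mean over probes, and Cxcl13 and Tgm2 did not reach an adjusted p under 0.05 in limma. Cd14 and Ncf4 were called in 25, C1qa and Fcgr2b in 23, Tyrobp in 18 and Lgals3 and Ifi47 in 15. Usp28 was called in 5 and Tgfbr2 in 9.

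**Figure D5:**
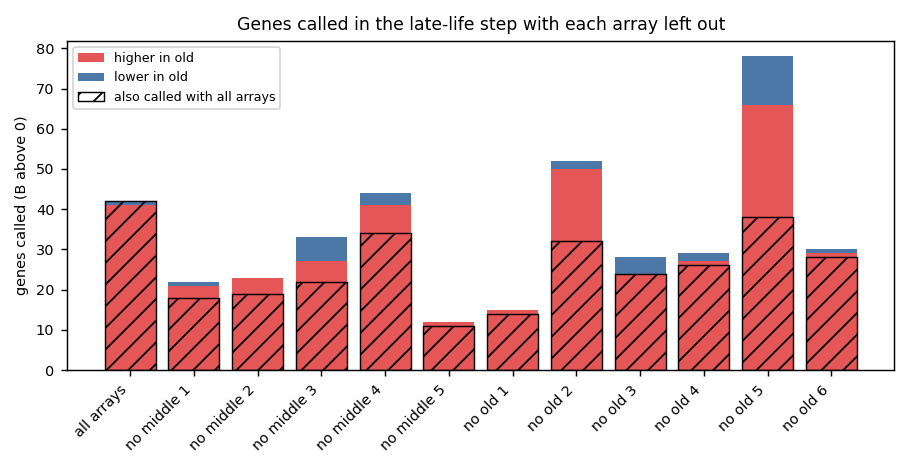
Number of genes called with B above 0 in the late-life step with all arrays and with each old or middle array left out, stacked as higher (red) and lower (blue) in old mice, with hatching for genes that were also among the 42. The count runs from 12 without middle array 5 to 78 without old array 5.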

How the data were processed

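The authors deposited 1-colour Agilent Feature Extraction output for each array (Feature Extraction 9.1 per the labels), and gProcessedSignal, a background-corrected intensity, was used from it. The authors' deposited series table, on a log2 scale, served as an alternative only. Here log2 signal was quantile normalized within the 18 BALB hypothalamus arrays, and within the CBA arrays separately. Outlier spots were left out, and probes had to be well above background on at least 5 of the 11 old and middle arrays. limma 3.58.1 in R 4.3.3 fitted all age groups of a strain, with a prior proportion of 0.01 for B, and adjusted p over all probes tested. A gene is given at its brightest tested probe unless stated. The procedure was checked on simulated data. Intensities allow no counting interval, and the number of arrays limits the precision.

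The genes named were the 15 higher and 10 lower of largest difference among those called (filled by smallest p), members of 37 gene lists that were called, bright, most changed or defining, and the 5 of largest B each way in the other comparisons. Other called genes, and the interferon-inducible genes outside the lists, were named after their values were seen. The arrays, lists and tests were chosen with earlier results of these data known. Alternatives changed scaling, background correction, filter, slide, scan date, pairing and single arrays. Of the BALB probes, 22951 of 41174 were named through RefSeq, and the others kept the name on the array. Values of some called genes are not reported here.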

Additional observations from a re-analysis of the deposited data

Results flagged for a closer look

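Of 162 groups of 4 to 10 arrays examined, 12 held 1 array far from the others by Dixon's ratio of gap to range, where chance would give 8.1. Old array 1 was highest for Itgax (ratio 0.647) and for Mpeg1 (0.819). Middle array 3 was highest for Fcer1g (0.85), old array 5 lowest for Tgfbr2 (0.644) and old array 4 highest for 9430020K01Rik (0.707). For mean levels of lists, old array 4 was highest for MHC class II genes (0.659) and middle array 2 for interferon-induced genes (0.809). Old array 3 was lowest for T cell markers (0.636), middle array 3 lowest for choroid plexus (0.755) and middle array 5 lowest for oligodendrocytes (0.723). For endothelium, middle array 3 was highest (0.775) and old array 2 lowest (0.657).

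The late-life difference was unlike between strains, by B above 0 for the test of BALB minus CBA, in 7 genes. At the probe with the largest B they were Serpina3g (1.48), Dleu2 (1.25), Tgm2 (0.68), Borcs7 (-0.64), 2210015D19Rik (-0.72), Tsn (-0.77) and Zfp474 (-1.10). The brightest probe of Borcs7 gave -0.40, that of 2210015D19Rik -0.06 and that of Tsn -0.39, each with B under 0. The late step differed from the early step in BALB in 13 genes, on the shared middle arrays. By the same choice of probe, those more positive late included Cd93 (3.45), H2-Ab1 (2.08), Serpina3g (2.01), Lrrc7 (0.94), 9430020K01Rik (0.93), Chordc1 (0.87) and Ccng2 (0.67). The brightest probe of Cd93 gave 0.71, that of H2-Ab1 1.18 and that of 9430020K01Rik 0.61, each with B under 0. Those more negative late were D030063E12 (-0.73), LOC544888 (-1.02), D3Ertd751e (-1.06), Trim27 (-1.15) and Cldn7 (-1.66), again at the probe with the largest B. The brightest probe of D3Ertd751e gave -0.67 and that of Trim27 -0.05, both with B under 0. None of the 20 reached an adjusted p under 0.05 in limma.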

How the results depend on the processing

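The late-life step in BALB had 42 genes called. With slide as a fixed term 27 were called (21 higher, 6 lower), and with scan date as a fixed term 65 (49 higher, 16 lower). The main fit had 41 higher and 1 lower. At an adjusted p under 0.05 in limma 6 were called, without the arrays of prolactin above 10, 0, and with the fibroblast level as a covariate, 0. The last 2 settings were chosen after seeing the data, and the first of them leaves 4 arrays in each age group. Leaving out 1 array gave from 12 to 80. The CBA step, 10 genes, gave 0 with 75th-percentile scaling, normexp correction, old and middle arrays only, the replicate block, series table values or adjusted p, and 1 with the strict filter, and leaving out 1 array gave from 0 to 70. The late against early step, 13 genes, gave 34 with 75th-percentile scaling, 5 with normexp, 0 without a filter, 22 with the strict filter, 2 with the replicate block and 0 at adjusted p, and from 0 to 80 leaving out 1 array. BALB against CBA, 7 genes, gave 12 with 75th-percentile scaling, 16 with normexp, 0 with the replicate block and 0 at adjusted p, and from 0 to 36 leaving out 1 array. Gcnt1 turned to -0.04218 with series table values. The cause was not tested for any of these. The deviations of same-numbered old and middle arrays correlated at 0.18, 0.10, -0.10, -0.12 and 0.12. Only for number 2 was the correlation with its own number the highest, so a pairing by number was not shown. The replicate block gave 59 calls in BALB, 12 of them among the 42. A scan date term could not be fitted in CBA, where all arrays had 1 date. Probes near background, such as that of Cxcl13, fell with normexp (0.76 against 2.53). Normexp also gave 0.67 for Itgax, 0.89 for Ch25h, 0.77 for Serpina3g, 0.60 for Ifi47 and 0.18 for Slc37a2, and the last 2 were then not called.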

Other observations

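None of the following gene groups held a gene called in the late-life step of BALB hypothalamus. The median difference was 0.11 over 17 circadian clock genes, 0.12 over 13 heat shock and unfolded protein response genes and 0.16 over 9 cell cycle inhibitors and p53 targets, all 9 of which were positive. It was -0.03 over 15 genes of cholesterol synthesis, 0.01 over 18 subunits of the respiratory chain, 0.14 over 16 genes of excitatory synapses and 0.02 over 12 genes of inhibitory synapses. Immediate early genes had a median of 0.04 and ran from -0.80 to 1.09.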
